A study of Homo sapiens with 12 samples.

Results

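Chemokines are small secreted proteins that direct the movement of leukocytes, and inflammatory cytokines are secreted signals that act on leukocytes and on the secreting tissue itself. The transcripts of 10 such genes were followed in PC9 cells: the CXC chemokines CXCL1, CXCL2, CXCL3, CXCL8, CXCL10 and CXCL11, the CC chemokines CCL5 and CCL20, and the cytokines IL6 and IL1B. Members were the rows of the count table whose Ensembl identifier maps to these symbols, and all 10 were found among 62754 identifiers. In most epithelial cells these genes are nearly silent at rest and are switched on by transcription factors of the NF-kB, AP-1 and interferon-regulatory families, and several of their messenger RNAs are short-lived.

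PC9 is a human lung adenocarcinoma line that carries a mutant EGFR, and erlotinib inhibits the EGFR kinase. All cells derived from a subclonal PC9 line, and the 3 cultures of each group were split from a common flask and grown independently, so p-values measure the spread between such cultures. There were 4 groups. Untreated WT cells were wild type for TDP1 and received no drug. DTC, short for drug-tolerant cells, were the same wild type kept for 7 days with erlotinib at 1 µM, and DTEC, drug-tolerant expanded cells, were kept at that dose for 28 days. KO cells came from the TDP1 knockout line KO2 and received no drug. The knockout is represented by this 1 line only, and whether it is a single clone is not given in the sources used here. The 3 comparisons against untreated WT share the untreated WT libraries.

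The 12 libraries held 25572691 to 38373679 estimated counts, and 3 counts corresponded to 0.0782 to 0.117 CPM, a count scaled by the size of its library. The targeted gene, TDP1, had a mean of 10.8 ± 0.647 CPM (SD, n = 3) in KO against 26.3 ± 1.60 CPM in untreated WT. This was a log2 difference of -1.29 (edgeR adjusted p 1.30e-05). TDP1 was also lower in DTC than in untreated WT (-0.92, edgeR adjusted p 3.56e-06), so a lower level was not particular to KO. The epithelial markers EPCAM, CDH1, KRT7, KRT8, KRT18 and KRT19 summed to 6293 to 7277 CPM in DTC and to 9276 to 12310 CPM in the other groups. The 8 leukocyte markers summed to 52.0 to 68.4 CPM in the DTC libraries, to 28.2 to 35.1 in untreated WT, to 28.1 to 31.5 in KO and to 36.8 to 43.8 in DTEC, and most of this was CD68, a lysosomal protein gene. All 5 tested leukocyte markers were called higher in DTC by edgeR, where 34.0% of all tested genes were. Only genes that passed a filter on low counts were tested, which favours genes that are high in DTC. ITGAX, LYZ and CD14 were low in untreated WT, so this count cannot be read as support. The myeloid integrin gene ITGAM went from 1.298 to 10.4 CPM, ITGAX from 0.133 to 2.31, LYZ from 0.217 to 1.36, CD14 from 0.173 to 0.738 and CD68 from 29.8 to 46.4 CPM. Among the untested markers, PTPRC, the gene of the common leukocyte antigen, had at most 5 counts in any library and CD3E at most 3. The 6 fibroblast markers summed to 55.0 to 57.8 CPM in DTC against 7.99 to 15.1 in the other groups, nearly all of it COL1A1. LUM had 43 counts over the DTC libraries and PDGFRA 12, against 0 in untreated WT for both, while COL1A2 and COL3A1 had at most 1 count in any library. The 5 endothelial markers summed to 42.3 to 50.2 CPM in DTC and 58.5 to 141.6 CPM elsewhere, mostly PECAM1 and CDH5. Mitochondrial genes took 4.43% to 5.41% of the counts in DTC and 1.82% to 2.78% in the other groups, and 23342 to 24224 genes had at least 1 count in DTC against 20711 to 22303 elsewhere. The part of these differences in the results was not tested.

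The genes lie in few places on GRCh38 by GENCODE 29. The 6 CXC genes are on chromosome 4, in 2 stretches: CXCL8 (chr4:73740506-73743716), CXCL1 (chr4:73869393-73871242), CXCL3 (chr4:74036589-74038807) and CXCL2 (chr4:74097035-74099293), and farther along CXCL10 (chr4:76021117-76023497) and CXCL11 (chr4:76033682-76041415). CCL5 is at chr17:35871491-35880793, IL6 at chr7:22725884-22732002, and IL1B (chr2:112829751-112836903) and CCL20 (chr2:227805739-227817564) are far apart on chromosome 2.

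The stretches just upstream of the members are shown here because NF-kB acts at many of these genes. Their part in the changes at 7 days was not tested. RefSeq promoters (GRCh38.p14) were matched for 9 of the 10 members, CCL5 being the one without an entry. The 250 bases before each transcript start were searched on both strands for 3 patterns, chosen with the sequences in view: a kappaB-like core GGANNTTCC, an interferon-response-like pattern made of GAAA, NN and GAAA in a row, and an AP-1-like pattern TGANTCA. The kappaB-like core was present in 7 of the 9 members and in 3.84% of the 35116 RefSeq promoters searched. The AP-1-like pattern was in 2 members, CXCL8 and CXCL11 (6.57% of promoters), and the interferon-response-like pattern in 1, CXCL10 (3.02%). Because the patterns were chosen with these sequences in view, the counts beside the shares of all promoters cannot be read as support. No match of one pattern overlapped a match of another. Most of the kappaB-like matches and both AP-1-like matches fit their pattern on either strand, so no orientation can be read from them. CCL20 and IL1B had none of the 3 patterns in this window, which says only that these letters are not there. The 120 bases before the starts of CXCL1 (chr4:73869273-73869392, plus strand), CXCL2 (chr4:74099196-74099315, minus strand) and CXCL3 (chr4:74038690-74038809, minus strand) read as follows, 5′ to 3′, with pattern matches in capitals.
CXCL1: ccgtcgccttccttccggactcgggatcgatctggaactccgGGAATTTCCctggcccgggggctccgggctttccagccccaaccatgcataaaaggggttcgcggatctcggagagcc
CXCL2: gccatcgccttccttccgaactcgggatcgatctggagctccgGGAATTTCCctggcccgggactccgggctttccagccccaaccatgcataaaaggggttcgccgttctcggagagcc
CXCL3: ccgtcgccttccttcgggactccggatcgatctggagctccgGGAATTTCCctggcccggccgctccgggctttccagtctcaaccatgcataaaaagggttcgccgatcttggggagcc
The same core, GGAATTTCC, began 78 bases before the start in CXCL1 and CXCL3 and 77 bases before it in CXCL2. Over the core and 20 bases on each side, 45 of 49 bases were identical between CXCL1 and CXCL3 and 41 of 49 between CXCL1 and CXCL2.

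The other members with a match are shown with 250 bases each because their responses were the largest and their matches lie in different arrangements. They are CXCL8 (chr4:73740319-73740568, plus strand), CXCL10 (chr4:76023498-76023747, minus strand), CXCL11 (chr4:76036071-76036320, minus strand) and IL6 (chr7:22726950-22727199, plus strand). Matches are again in capitals.
CXCL8: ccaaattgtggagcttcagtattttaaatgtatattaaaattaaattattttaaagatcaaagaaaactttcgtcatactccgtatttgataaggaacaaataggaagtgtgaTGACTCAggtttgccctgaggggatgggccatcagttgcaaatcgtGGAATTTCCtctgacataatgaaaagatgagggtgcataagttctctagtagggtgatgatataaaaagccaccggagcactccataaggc
CXCL10: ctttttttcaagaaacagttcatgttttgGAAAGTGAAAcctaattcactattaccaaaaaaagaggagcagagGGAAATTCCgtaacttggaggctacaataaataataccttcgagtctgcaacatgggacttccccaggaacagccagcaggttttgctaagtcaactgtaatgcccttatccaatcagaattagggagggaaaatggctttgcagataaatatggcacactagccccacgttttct
CXCL11: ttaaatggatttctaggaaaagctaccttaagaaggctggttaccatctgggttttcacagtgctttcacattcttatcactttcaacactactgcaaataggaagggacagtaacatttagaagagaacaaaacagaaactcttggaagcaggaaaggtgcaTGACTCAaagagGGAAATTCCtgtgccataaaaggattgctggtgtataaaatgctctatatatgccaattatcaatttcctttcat
IL6: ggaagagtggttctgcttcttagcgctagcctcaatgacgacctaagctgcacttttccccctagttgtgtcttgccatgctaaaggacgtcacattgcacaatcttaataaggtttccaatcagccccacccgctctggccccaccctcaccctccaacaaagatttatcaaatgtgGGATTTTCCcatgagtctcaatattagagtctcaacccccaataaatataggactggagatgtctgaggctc
The kappaB-like core began 91 bases before the start in CXCL8, 75 in CXCL11 and 72 in IL6, and in CXCL10 it lay farther out, at 176 bases. The AP-1-like match of CXCL8 began 137 bases and that of CXCL11 87 bases before the start. The interferon-response-like match of CXCL10 began at 221 bases. The windows end at the RefSeq start, and those of CXCL2, CXCL3, CXCL8, CXCL11 and IL6 overlap the GENCODE 29 gene, whose first base is farther out. A match is a description of the sequence and not evidence that a factor was bound in these cells.

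**Figure D1:**
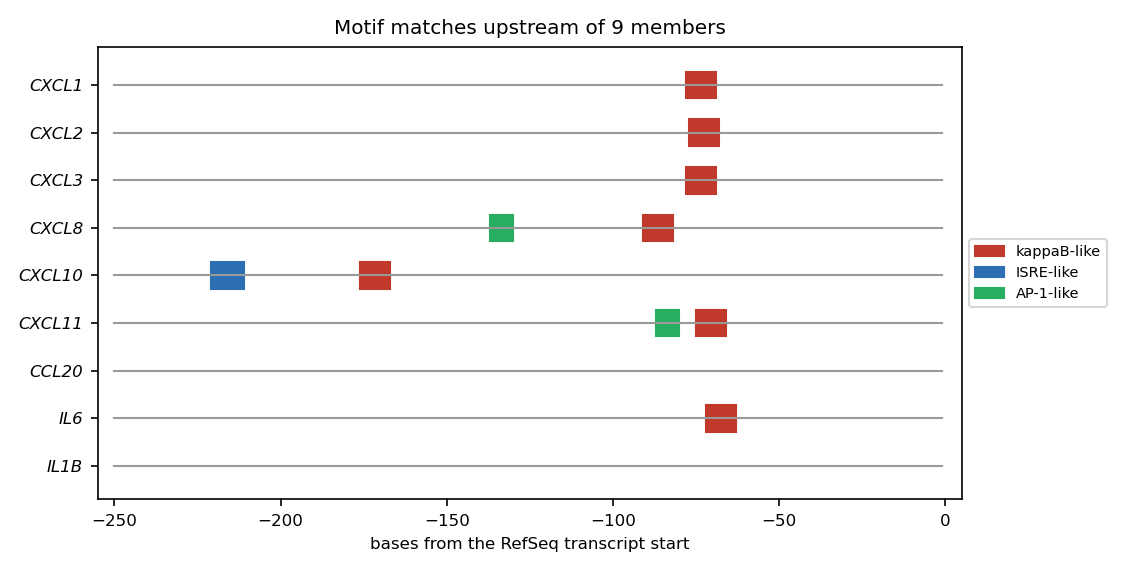
Positions of pattern matches in the 250 bases upstream of the RefSeq transcript start of 9 members, with distance from the start in bases on the horizontal axis and 1 line per gene. Red boxes are the kappaB-like core, green boxes the AP-1-like pattern and blue boxes the interferon-response-like pattern. In 6 members the kappaB-like core lies between 72 and 91 bases before the start, in CXCL10 at 176 bases, and CCL20 and IL1B have no box.

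Counts were scaled to library size by TMM (trimmed mean of M-values), and edgeR's quasi-likelihood test was fitted to all 12 libraries, with Benjamini-Hochberg adjustment over the 17115 genes that passed a filter on low counts. Calls were made at an adjusted p under 0.05. After 7 days of erlotinib all members had higher levels than in untreated WT, in every library, with the largest values for CXCL8, CXCL11 and IL6. CXCL3 and CCL20 did not pass the filter, and CXCL1, CXCL2, CXCL10 and CXCL11 passed only through the DTC libraries, so that a count over the 8 tested members cannot be read as support. All 8 tested members were called higher, where 34.0% of all tested genes were called higher and 67.3% in either direction. With no filter 8 of 10 members were called higher, the exceptions being CXCL2 and CXCL3, against 20.6% of 31466 genes. Scaling by total counts alone gave 8008 genes higher and 3702 lower in DTC in place of 5818 and 5702, and also called 8 members. More expressing cells and more RNA per expressing cell cannot be told apart in such bulk libraries.

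CXCL8, the neutrophil-attracting chemokine also known as interleukin-8, was at 0.597, 0.506 and 0.808 CPM in untreated WT replicates 1, 2 and 3, and at 10.3, 24.1 and 19.0 CPM in DTC. It was at 2.77, 1.299 and 0.879 CPM in DTEC and at 0.632, 0.647 and 0.664 CPM in KO. The 3 DTC libraries stood above all others by a wide margin, DTEC lay between, and KO fell within the range of untreated WT. The rise in DTC was 4.79 on the log2 scale (SE 0.416, edgeR quasi-likelihood adjusted p 2.81e-07). DTEC also exceeded untreated WT (1.36, SE 0.437, edgeR adjusted p 0.0188), but this rested on single libraries: without DTEC replicate 1 the value was 0.76 with adjusted p 0.128, and without untreated WT replicate 2 adjusted p was 0.0556. From DTC to DTEC it fell by 3.43 (SE 0.375, edgeR adjusted p 5.54e-06), or by 4.06 without DTEC replicate 1. No difference was detected between KO and untreated WT (0.02, SE 0.488).

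CXCL1, CXCL2 and CXCL3, close paralogs that like CXCL8 carry the ELR motif and act on the neutrophil receptor CXCR2, were much less abundant. CXCL1 had 2, 2 and 1 deposited counts in untreated WT, 25, 46 and 39 in DTC, 16, 11 and 9 in DTEC and 1, 1 and 2 in KO. DTC and DTEC were thus both above untreated WT with no overlap, and KO could not be told from untreated WT at this depth. The DTC level was 22.0 times that of untreated WT, with a 95% counting interval of 9.16 to 69.2 (edgeR adjusted p 3.46e-06), and the DTEC level 7.38 times (2.89 to 24.1, edgeR adjusted p 0.000641). DTEC was lower than DTC by -1.54 on the log2 scale (SE 0.394, edgeR adjusted p 0.00436).

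CXCL2 had 5, 2 and 4 counts in untreated WT, 8, 18.8 and 12 in DTC, 8, 3 and 7 in DTEC and 3, 7 and 2 in KO. Only DTC lay wholly above untreated WT, and by less than for CXCL1. The log2 difference of 1.79 (SE 0.589, edgeR adjusted p 0.0149) lost its call with no filter (0.0588), without untreated WT replicate 2 (0.0585) and without DTC replicate 2 (0.0704). CXCL3 had 2, 1 and 3 counts in untreated WT, 6, 15.2 and 10 in DTC, 2, 3 and 0 in DTEC and 1, 5 and 0 in KO. Its DTC counts stood above those of the other groups, at 5.17 times untreated WT (95% counting interval 2.13 to 15.2). It was tested only with no filter, where edgeR's adjusted p was 0.0504. Of the 12 deposited values of CXCL2, 11 were whole numbers, and likewise for CXCL3. Both exceptions were in DTC replicate 2, where reads that match several of these similar genes were divided between features, so those values are uncertain.

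CXCL10 and CXCL11 are interferon-inducible chemokines that attract T cells and natural killer cells through the receptor CXCR3. CXCL11 had 0, 1 and 1 counts in untreated WT, 232, 702 and 478 in DTC, 5, 4 and 1 in DTEC and 0, 0 and 2 in KO. DTC alone held more than a few reads, with 7.84, 20.7 and 14.0 CPM in its 3 libraries. The DTC level was 707 times that of untreated WT, with a counting interval of 195 to 5843 (edgeR adjusted p 2.26e-08). In DTEC it was 7.02 lower on the log2 scale than in DTC (-7.02, SE 0.514, edgeR adjusted p 1.17e-07). The difference between DTEC and untreated WT was not called (edgeR adjusted p 0.140), although it was with no filter (0.0486). CXCL10 had no counts in untreated WT, 52, 109 and 98 in DTC, 1, 2 and 4 in DTEC and 0, 2 and 3 in KO. Its DTC libraries, at 1.76, 3.21 and 2.87 CPM, were at least 28.3-fold higher than untreated WT, taking 3 counts per library as the floor (edgeR adjusted p 1.01e-06). DTEC was lower than DTC by -5.09 on the log2 scale (SE 0.566, edgeR adjusted p 1.08e-05). The edgeR test also called DTEC above untreated WT (adjusted p 0.0195), but on 7 counts in all and not without DTEC replicate 3 (0.0625), and KO was not called (0.187). Both genes lie within a locus where ART3 runs on the opposite strand, and ART3 had at most 1 count in any DTC library.

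**Figure D2:**
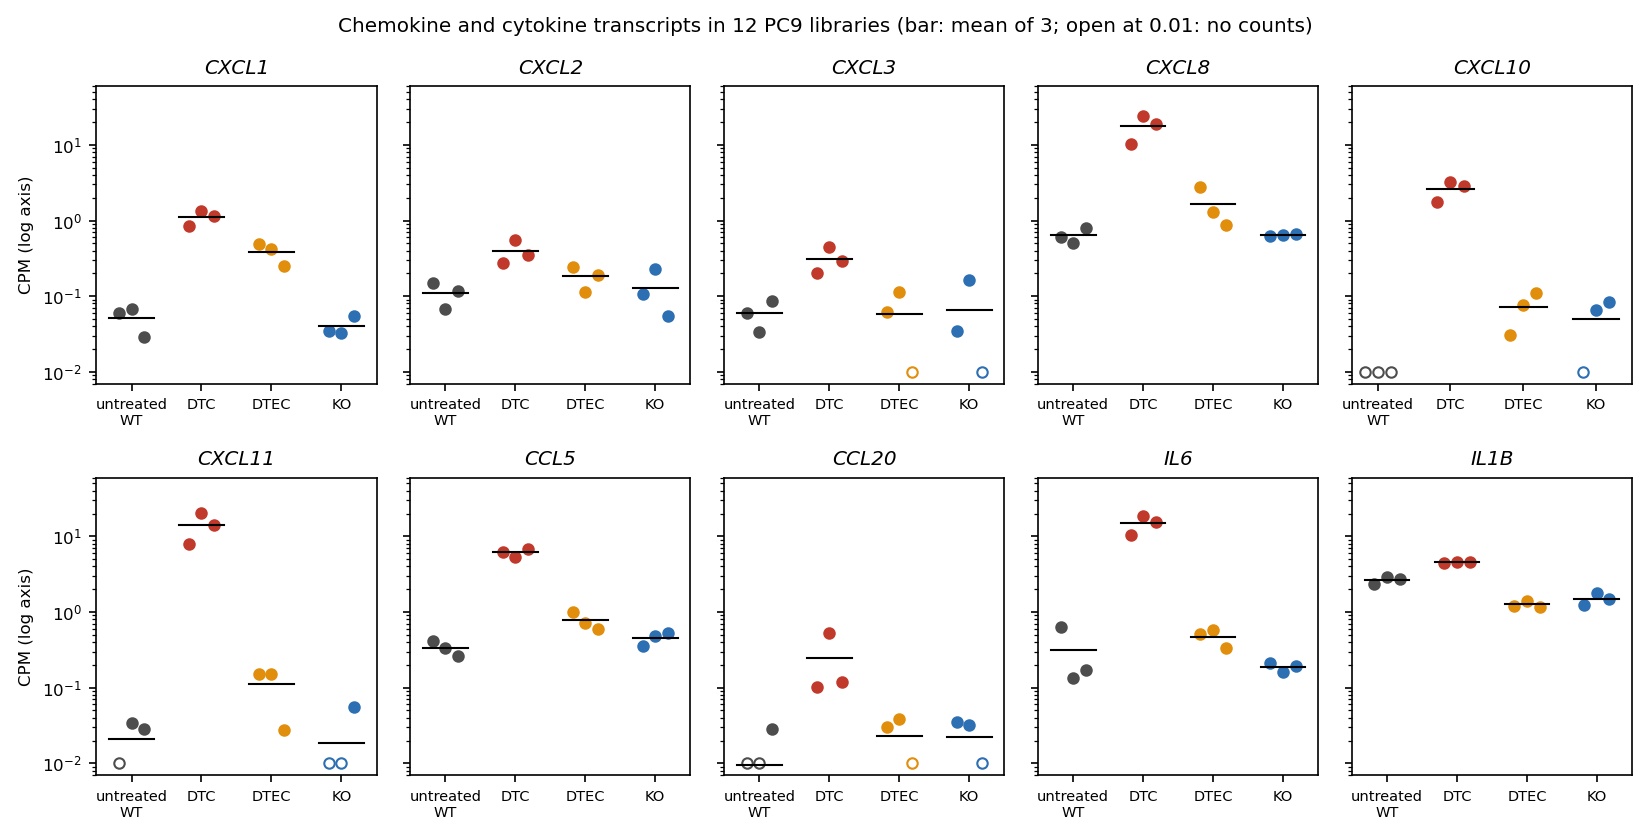
Level of each of the 10 genes in every library, in CPM on a log axis, by group, with filled circles for libraries, open circles placed at 0.01 for libraries without counts, and a bar at the mean of 3. The 3 DTC libraries lie above the 3 untreated WT libraries in all 10 panels, while DTEC libraries lie near or moderately above untreated WT for most genes and below it for IL1B.

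CCL5 attracts T cells and monocytes. It was at 0.418, 0.337 and 0.260 CPM in untreated WT and at 6.25, 5.42 and 6.74 CPM in DTC. It was at 1.01, 0.726 and 0.605 CPM in DTEC and at 0.351, 0.486 and 0.525 CPM in KO. DTC was far above the rest, DTEC was above untreated WT without overlap, and KO overlapped untreated WT. The DTC difference was 4.17 (SE 0.277, edgeR adjusted p 1.14e-08) and the DTEC difference 1.19 (SE 0.297, edgeR adjusted p 0.00381), both called in every alternative tried. DTEC was below DTC by -2.97 (SE 0.252, edgeR adjusted p 3.30e-07), and KO was not called (0.43, SE 0.315, edgeR adjusted p 0.540). No value of CCL5 in the table was whole (0 of 12), so its level depends on how the authors' counting divided reads that match several features. The antisense gene AC015849.1, which overlaps it, had at most 2 counts in any library.

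CCL20, the ligand of the receptor CCR6, was among the rarest members. Its counts were 0, 0 and 1 in untreated WT, 3, 18 and 4 in DTC, 1, 1 and 0 in DTEC and 1, 1 and 0 in KO. All 3 DTC libraries exceeded the others, but DTC replicate 2 alone held most of the reads. The DTC level was 25.0 times that of untreated WT, with a counting interval of 4.10 to 1028 that reflects the single untreated read. With no filter edgeR called it (adjusted p 0.00871).

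IL6 is a cytokine that signals through IL6R and the shared receptor subunit IL6ST. It was at 0.627, 0.135 and 0.173 CPM in untreated WT, and at 10.5, 18.4 and 15.5 CPM in DTC. It was at 0.518, 0.573 and 0.330 CPM in DTEC and at 0.211, 0.162 and 0.194 CPM in KO. DTC stood apart, DTEC and KO each overlapped untreated WT but not each other, and untreated WT replicate 1 was well above the other untreated libraries. The DTC difference was 5.54 (SE 0.393, edgeR adjusted p 2.48e-08), or 6.57 without untreated WT replicate 1. DTEC was below DTC by -4.98 (SE 0.376, edgeR adjusted p 1.22e-07) and did not pass the test against untreated WT (0.56, SE 0.480, edgeR adjusted p 0.349). That last comparison depended on untreated WT replicate 1, without which the difference was 1.58 with adjusted p 0.0106. KO was not called (-0.73, SE 0.561, edgeR adjusted p 0.566). On the opposite strand of the IL6 locus, STEAP1B had 16 to 109.8 counts, highest in untreated WT, and the antisense gene AC073072.1 had at most 19 counts in DTC.

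IL1B encodes a cytokine made as an inactive precursor that is usually cut by caspase-1, and it differed from the other members. It was the most abundant of them per kilobase of exon in untreated WT, at 2.33, 2.90 and 2.71 CPM. It was at 4.46, 4.59 and 4.63 CPM in DTC and at 1.22, 1.41 and 1.18 CPM in DTEC. In KO it was at 1.23, 1.78 and 1.49 CPM, so that DTC lay above and both DTEC and KO below untreated WT, without overlap. The rise in DTC was the smallest among the tested members (0.79, SE 0.187, edgeR adjusted p 0.00187). DTEC differed from untreated WT by -1.06 (SE 0.200, edgeR adjusted p 0.000488) and from DTC by -1.85 (SE 0.198, edgeR adjusted p 3.10e-06). KO differed from untreated WT by -0.81 (SE 0.197, edgeR adjusted p 0.0306). This KO call was lost with no filter (adjusted p 0.0914) and without untreated WT replicate 1 (0.0556), 2 (0.117) or 3 (0.115) or KO replicate 1 (0.153) or 3 (0.131).

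**Figure D3:**
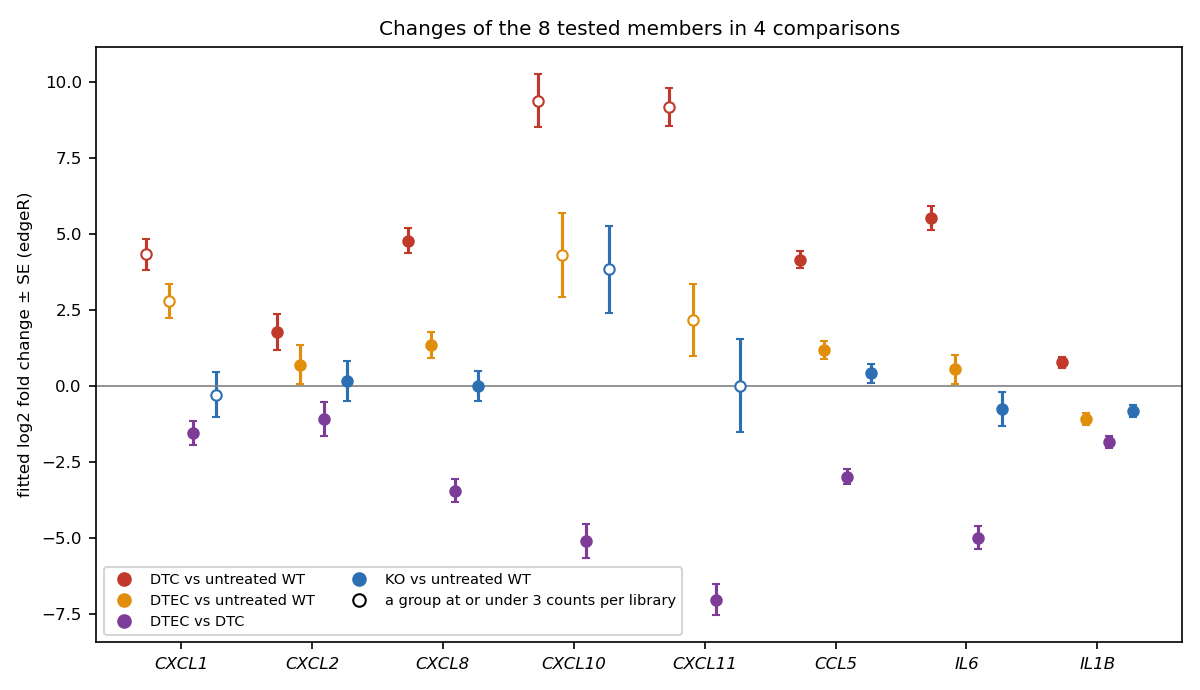
Fitted log2 fold change of the 8 tested genes in 4 comparisons, with bars of 1 SE, from the edgeR fit of all 12 libraries. Open circles mark comparisons in which a group had 3 counts or fewer in every library or a mean under that floor, where the fitted size depends on a small constant added to the counts and is no bound. IL1B alone is negative both for DTEC (-1.06) and for KO (-0.81) against untreated WT while being positive for DTC (0.79).

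In DTEC against untreated WT, CXCL1, CXCL8, CXCL10 and CCL5 were called higher and IL1B lower, where 26.0% of tested genes were called higher and 26.3% lower. The count of 5 among 8 tested members stands beside 52.3% of all genes called in either direction. With no filter CXCL11 was added, giving 5 higher and 1 lower of 10, where 14.5% of genes were called higher, 14.2% lower and 28.7% in either direction. From DTC to DTEC 7 of the 8 tested members were called lower, all but CXCL2, against 26.6% of all tested genes called lower and 55.4% called in either direction. With no filter 8 of 10 were called lower, CCL20 being added, against 15.4% lower and 31.0% in either direction. In KO, IL1B was the only member called, which is 1 of 8 where 1.55% of tested genes were called lower and 4.31% in either direction. DESeq2 also called 1 member in KO. With no filter edgeR called 0 of 10 in KO, against 2.58% of genes called higher, 1.06% lower and 3.65% in either direction, and 2 members, CXCL10 and IL1B, had an unadjusted p under 0.05.

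The DTEC mean was a different share of the DTC mean in each member. The mean in DTEC was 0.782% of the DTC mean for CXCL11, 2.77% for CXCL10 and 3.20% for IL6. It was 9.17% for CCL20, 9.27% for CXCL8 and 12.7% for CCL5. It was 18.7% for CXCL3, 27.9% for IL1B, 34.6% for CXCL1 and 46.6% for CXCL2. These shares depend on the untreated level too, so a high share does not mean that a rise was kept: IL1B in DTEC (1.27 CPM) lay below untreated WT (2.65 CPM), and CXCL3 (0.0585 CPM) was near it (0.0600 CPM). The differences between members were not tested.

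**Figure D4:**
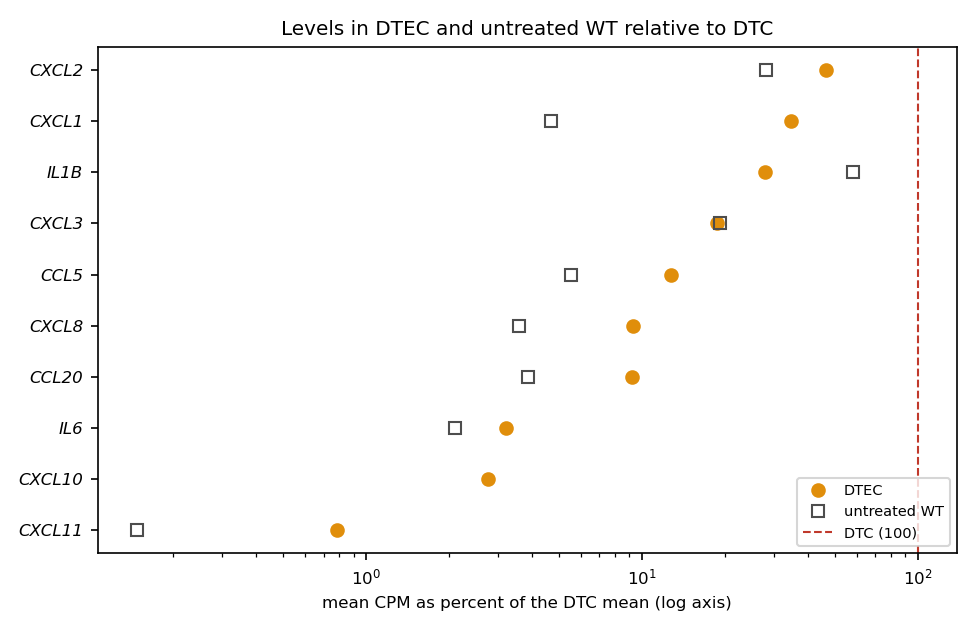
Mean CPM of each gene in DTEC (filled circles) and in untreated WT (open squares) as a percentage of its mean in DTC, on a log axis, with the DTC level as a dashed line at 100. DTEC ranges from 0.782% for CXCL11 to 46.6% for CXCL2, and IL1B is the gene whose DTEC mark lies clearly to the left of its untreated mark. CXCL10 has no square because untreated WT had no counts.

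Within DTC the libraries were ordered alike across most members. Replicate 1 was the lowest DTC library for 9 members, CCL5 being the exception, and replicate 2 the highest for 8, all but CCL5 and IL1B. Over genes in general, DTC replicate 1 also stood apart (mean chi-square per gene 118 and 73.1 against replicates 2 and 3). Between replicates 2 and 3 it was 17.5. The share of all genes with this order was not counted, so the order cannot be called particular to the members. The calls of the DTC comparison other than that of CXCL2 remained without any single library.

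Levels were compared between genes per kilobase of exon, using exon lengths from GENCODE 29. In untreated WT, IL1B led at 0.855 ± 0.0939 CPM per kilobase (SD, n = 3), above CXCL8 at 0.280 ± 0.0680, and each lower neighbour overlapped the next. In DTC, CXCL8 (7.83 ± 3.05), CXCL11 (7.43 ± 3.36) and IL6 (7.16 ± 1.93) overlapped in their ranges at the top. CCL5 followed at 4.06 ± 0.444, then CXCL10 at 2.22 ± 0.646 and IL1B at 1.47 ± 0.0289, the last pair overlapping. CXCL1 was at 0.860 ± 0.197, above CXCL2, CCL20 and CXCL3, which overlapped at 0.263 to 0.141 CPM per kilobase. In DTEC, CXCL8 (0.726 ± 0.437), CCL5 (0.515 ± 0.136) and IL1B (0.411 ± 0.0402) led, and neighbours among them overlapped. In KO, IL1B (0.485 ± 0.0891) led CCL5 (0.300 ± 0.0604) and CXCL8 (0.285 ± 0.00698). All 10 genes together thus remained rare messages, the highest group mean being 17.8 CPM for CXCL8 in DTC.

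AU-rich elements, runs built on the letters ATTTA in the 3′ untranslated region, mark messages for rapid decay, and the members were compared for them. CXCL2 had 10 such pentamers, CXCL8 9, CXCL3 7, IL6 and IL1B 6 each, CXCL1 5 and CCL20 3, where the median over 18921 protein-coding genes was 1. Per kilobase these 7 members lay above 95.2% to 99.3% of genes. CXCL10 and CXCL11 had 1 each and CCL5 had 0, below the median density over genes, which was 1.41 per kilobase. The overlapping pair ATTTATTTA was in 4 members, CXCL1, CXCL2, CXCL8 and IL1B, and in 6.33% of all genes. The 3 members without a raised density were the CXCR3 ligands and CCL5. The transcripts used were GENCODE 29 principal transcripts, whose ends in PC9 cells are not known.

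The receptors for these ligands showed a different picture. CXCR1 and CXCR2, the neutrophil receptors for the ELR chemokines, CXCR3 and CCR6 were all too rare to be tested, with 7 counts or fewer in every library. Among 6 tested receptor genes, 2 were called higher and 3 lower in DTC, where 67.3% of all tested genes were called in either direction, with a median log2 difference of -0.15 against 0.06 over all tested genes. CCR3, a receptor for CCL5 and eotaxins, rose from 4.49 ± 0.212 to 8.44 ± 1.57 CPM in DTC (0.91, SE 0.154, edgeR adjusted p 0.000115) and to 11.1 ± 1.34 CPM in DTEC (1.31, SE 0.154, edgeR adjusted p 8.26e-06). CCR1, which also binds CCL5, fell to 0.771 ± 0.186 CPM in DTC (-0.97, SE 0.278, edgeR adjusted p 0.00645) and was at 3.12 ± 0.840 CPM in DTEC, above DTC (2.01, SE 0.273, edgeR adjusted p 2.73e-05). IL6R fell in DTEC from 5.68 ± 0.685 to 2.78 ± 0.210 CPM (-1.03, SE 0.163, edgeR adjusted p 0.000115). IL1RAP, the co-receptor for IL-1, fell from 37.7 CPM in DTC to 14.7 CPM in DTEC (-1.36, SE 0.152, edgeR adjusted p 4.53e-06), against 21.3 CPM in untreated WT. In KO, where 4.31% of all tested genes were called in either direction, the 1 called receptor was IL1R1, the signalling IL-1 receptor. It was at 47.7 ± 1.71 against 32.7 ± 1.95 CPM (0.55, SE 0.114, edgeR adjusted p 0.0136).

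Of 6 genes for antagonists and decoys of these pathways 5 were tested, and in DTC 3 were called higher and 2 lower, where 67.3% of all tested genes were called in either direction. The scavenger receptor ACKR3, which binds CXCL11 and CXCL12, rose from 2.72 ± 0.215 to 11.9 ± 1.96 CPM in DTC (2.13, SE 0.150, edgeR adjusted p 2.01e-08) and was at 12.4 ± 1.08 CPM in DTEC (2.19, SE 0.150, edgeR adjusted p 6.30e-08). Unlike its ligand CXCL11, it did not fall from DTC to DTEC, where the log2 difference was 0.06. ACKR3 was lower in KO, at 1.41 ± 0.0673 CPM (-0.95, SE 0.167, edgeR adjusted p 0.00506). The decoy receptor IL1R2 fell from 7.68 ± 0.410 to 2.56 ± 0.759 CPM in DTC (-1.59, SE 0.207, edgeR adjusted p 9.26e-06) and to 1.54 ± 0.342 CPM in DTEC (-2.31, SE 0.216, edgeR adjusted p 1.00e-06). The IL-1 receptor antagonist gene IL1RN was at 4.825 ± 0.4555 CPM in untreated WT and 19.1 ± 3.04 CPM in DTC. From DTC it fell to 3.13 ± 0.162 CPM in DTEC (-2.61, SE 0.165, edgeR adjusted p 1.93e-08).

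Of 29 other chemokine genes 8 passed the filter, and all 8 were called higher in DTC, where 34.0% of all tested genes were, with a median log2 difference of 3.62 against 0.06 over all tested genes. The filter acts on these genes as on the members, so the count has the same limit. PPBP, another ELR chemokine, had no counts in untreated WT or KO and was at 16.5 ± 4.26 CPM in DTC, at least 178-fold higher taking 3 counts per library as the floor (edgeR adjusted p 9.15e-05). It fell to 1.29 ± 1.10 CPM in DTEC (-3.68, SE 0.621, edgeR adjusted p 0.00163). In DTEC against untreated WT 5 of these chemokines were called higher and 1 lower, where 26.0% and 26.3% of all tested genes were. In KO edgeR called 0, where 4.31% of all tested genes were called in either direction. In KO 2 had an unadjusted p under 0.05 in edgeR, CXCL16 and CXCL17, the second of which was called by DESeq2. Chemokines at 0 in every library included CXCL12, CXCL14, CCL4, CCL7 and CCL8, which are named here after their values were seen.

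Of 34 other cytokine genes 17 were tested, and at 7 days 12 were called higher and 1 lower, with a median of 1.71, where 34.0% of all tested genes were called higher and 33.3% lower. Here too the filter favours genes that are high in DTC: LTA, LTB and IL34 had 0 counts in untreated WT. LTB, which encodes lymphotoxin beta, had no counts in untreated WT and was at 2.91 ± 0.863 CPM in DTC, at least 31.4-fold higher (edgeR adjusted p 1.20e-07). CLCF1, a cytokine of the IL-6 family, fell from 19.1 ± 1.02 to 10.9 ± 1.19 CPM (-0.80, SE 0.108, edgeR adjusted p 1.28e-05). From DTC to DTEC 11 were called lower and 2 higher, where 26.6% of all tested genes were called lower and 28.8% higher. IL32 fell from 209.9 ± 29.1 to 5.01 ± 1.46 CPM (-5.39, SE 0.225, edgeR adjusted p 5.35e-10), against 0.834 CPM in untreated WT. TNFSF10, the gene of the death ligand TRAIL, rose from 1.15 ± 0.539 to 5.42 ± 1.17 CPM (2.22, SE 0.454, edgeR adjusted p 0.000949). TNFSF10 was the largest rise in DTEC against untreated WT (5.22, SE 0.584, edgeR adjusted p 6.30e-06) among cytokines with a mean of at least 1 CPM, and LIF the largest fall, from 69.99 ± 2.57 to 35.2 ± 2.94 CPM (-0.99, SE 0.0902, edgeR adjusted p 7.72e-07). In KO 2 were called higher and 4 lower, where 2.76% of all tested genes were called higher and 1.55% lower. The higher ones were CSF1 and TNF. The TNF call rested on 12 counts in KO against 1 in untreated WT, and DESeq2 did not make it. CSF1 was the called rise (0.36, SE 0.0941, edgeR adjusted p 0.0447) and IL11 the largest fall (-0.89, SE 0.205, edgeR adjusted p 0.0242) at a mean of at least 1 CPM. Below it, IL1A, which like IL1B encodes an IL-1 receptor ligand and is named after its values were seen, was at 0.686 CPM in untreated WT and 0.148 CPM in KO (-2.20, SE 0.549, edgeR adjusted p 0.0361).

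Genes that process these proteins were tested for 9 of 14. In DTC 5 were called higher and 1 lower, where 34.0% and 33.3% of all tested genes were, or 67.3% in either direction. The filter again favours genes that are high in DTC, such as CASP1, so the count has the same limit. CASP1, the caspase that cuts the IL1B precursor, had at most 3 counts in untreated WT and was at 2.13 ± 0.566 CPM in DTC, 52.8 times as high (95% counting interval 20.3 to 195.7, edgeR adjusted p 1.80e-06). The inflammasome genes PYCARD, NLRP3 and NLRC4 had at most 3 counts in any library. The inflammasome sensor gene NLRP1 was expressed, and rose from 33.8 ± 3.08 to 76.4 ± 4.09 CPM in DTC (1.18, SE 0.123, edgeR adjusted p 1.03e-06). All of these are named after their values were seen. ADAM17, a sheddase, fell from 171.9 ± 8.47 to 105.5 ± 11.6 CPM in DTC (-0.71, SE 0.115, edgeR adjusted p 8.56e-05) and rose again in DTEC (0.67, SE 0.115, edgeR adjusted p 0.000213). DPP4, the protease that trims CXCL10 and CXCL11, was at 0.189 CPM in untreated WT and 1.94 ± 0.716 CPM in DTC. From DTC it fell to 0.0834 ± 0.119 CPM in DTEC (-4.35, SE 0.700, edgeR adjusted p 0.000122). CASP1 was also called higher in DTEC than in untreated WT, at 1.37 ± 0.692 CPM (edgeR adjusted p 1.60e-05). Among the processing genes whose mean over these groups reached 1 CPM, CASP4 had the largest rise (0.78, SE 0.121, edgeR adjusted p 9.88e-05), and CASP8 fell (-0.34, SE 0.0985, edgeR adjusted p 0.00966). In KO edgeR and DESeq2 called 0 of the 9, where edgeR called 4.31% of all tested genes. In KO 2 had an unadjusted p under 0.05 in edgeR, CASP4 and CASP8.

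All 30 listed transcription factors and feedback regulators were tested, and in DTC 16 were called higher and 7 lower, against 34.0% and 33.3% of all tested genes, with a median of 0.64. ATF3, a stress-induced AP-1 relative, rose from 1.82 ± 0.204 to 43.8 ± 4.57 CPM (4.59, SE 0.248, edgeR adjusted p 2.30e-09). FOSL1, an AP-1 subunit downstream of ERK, fell from 192 ± 13.2 to 23.2 ± 2.70 CPM (-3.05, SE 0.142, edgeR adjusted p 4.60e-10). In DTEC against untreated WT 11 were called higher and 10 lower, where 26.0% and 26.3% of all tested genes were. The same pair was farthest apart, with ATF3 at 7.59 ± 2.78 CPM (2.06, SE 0.243, edgeR adjusted p 9.92e-06) and FOSL1 at 59.4 ± 11.8 CPM (-1.70, SE 0.134, edgeR adjusted p 2.18e-07). From DTC to DTEC 16 were called lower and 4 higher, where 26.6% of all tested genes were called lower and 28.8% higher. TNFAIP3, the NF-kB feedback inhibitor A20, fell from 159 ± 24.4 to 16.98 ± 2.93 CPM (-3.23, SE 0.144, edgeR adjusted p 6.82e-10). This was below its 50.9 CPM in untreated WT (-1.58, SE 0.1375, edgeR adjusted p 4.89e-07). FOS rose from 5.11 to 34.85 CPM (2.76, SE 0.255, edgeR adjusted p 1.20e-06), against 24.8 CPM in untreated WT. In KO the 1 called regulator was FOSL1, at 113.9 ± 1.99 CPM (-0.76, SE 0.131, edgeR adjusted p 0.00452), where 4.31% of all tested genes were called in either direction.

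Of 8 genes for RNA-binding proteins that govern message decay, by AU-rich elements or other features, 4 were called lower in DTC and 0 higher, where 33.3% of all tested genes were called lower, with a median of -0.69 against 0.06 over all tested genes. HNRNPD, which encodes the AU-rich binding protein AUF1, fell from 343 ± 36.5 to 93.8 ± 18.9 CPM (-1.87, SE 0.132, edgeR adjusted p 2.07e-08), and rose to 212 ± 3.36 CPM in DTEC (1.17 above DTC, SE 0.130, edgeR adjusted p 4.15e-06). In DTEC 4 remained below untreated WT, where 26.3% of all tested genes were called lower and 26.0% higher. KHSRP was the lowest of these 4 (-0.96, SE 0.116, edgeR adjusted p 9.96e-06), and ZFP36L1 was higher (0.24, SE 0.0894, edgeR adjusted p 0.0344). In KO 0 of 8 were called by edgeR or DESeq2, where edgeR called 4.31% of all tested genes, and 0 had an unadjusted p under 0.05 in edgeR.

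**Figure D5:**
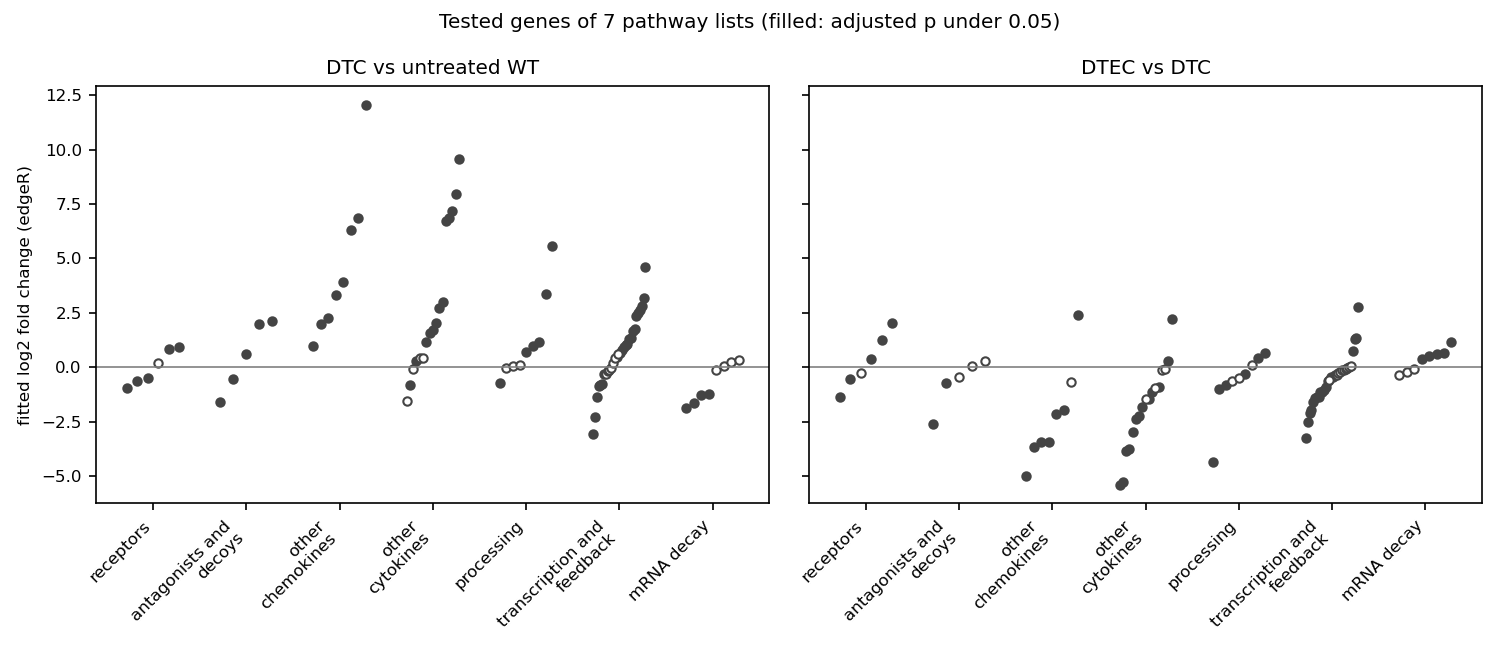
Fitted log2 fold changes of the tested genes in 7 pathway lists, for DTC against untreated WT on the left and DTEC against DTC on the right, with filled circles for genes called by edgeR at an adjusted p under 0.05. Genes without counts in a group, such as PPBP and LTB in untreated WT, are drawn at their fitted value, which is no bound. The other chemokines lie above 0 at 7 days and mostly below 0 from 7 to 28 days, while receptors spread to both sides and decay genes lie mostly below 0 at 7 days.

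The genes whose profile over the 12 libraries was most like a member's were found by Pearson correlation of log2 CPM among 13683 other genes with a mean of at least 1 CPM. The libraries share their group and depth, and many genes were high in DTC, so high values were common: 285 genes exceeded 0.95 for CXCL8, 280 for CXCL11, 339 for CCL5 and 221 for IL6, but 11 for IL1B. CXCL8 was closest to PHF11 (r = 0.993) and IFNGR1 (0.992), the gene of an interferon-gamma receptor chain, which was at 284 CPM in DTC and 55.3 in untreated WT. CXCL11 was closest to TMEM265 (0.995) and RGS9 (0.992). CCL5 was closest to CYB5R1 (0.996) and SCD5 (0.993), and IL6 to NABP1 (0.990) and PSORS1C1 (0.988). IL1B was closest to MAPRE2 (0.968), which like IL1B was highest in DTC (22.1 CPM, against 15.0 in untreated WT) and low in DTEC (7.15) and KO (8.58), and to BTBD10 (0.964).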

How the data were processed

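The deposited table held expected counts, estimated read counts per gene that the authors left unscaled. Per the submitters' processing notes, RSEM 1.3.1, Bowtie2 2.5.2, DESeq2 1.40.2 and GRCh38 were used. Their roles and the annotation release are not given in the sources used here. A stranded kit for polyadenylated RNA was used and all libraries belong to 1 batch, per the labels, so no within-batch comparison beyond the pooled one was possible. After rounding, edgeR 4.0.16 in R 4.3.3 was run (TMM, filterByExpr, robust quasi-likelihood fit of 12 libraries, 1 mean per group). DESeq2 1.42.0 was an alternative. CPM used TMM-scaled totals. SE denotes the standard error of a log2 difference.

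Where no library of a group exceeds 3 counts, a gene has ratios of summed counts with exact 95% intervals, or bounds against 3 counts per library. These cover counting error only and not the spread between cultures. Reads carried no molecular identifiers, so duplicate reads could not be set aside. Symbols were found for 62700 of 62754 identifiers. Members, gene lists and patterns were chosen with earlier results of these data known. From each list, the called genes with the largest rise and fall at a mean of at least 1 CPM were named, and the 2 most correlated genes per member at that level. Same-numbered replicates of different groups had correlations of deviations from -0.03 to 0.179 over 18 pairs, with a median of 0.053. Differently numbered ones had -0.187 to 0.118 over 36 pairs, with a median of -0.032. The labels state no pairing, so numbers were not treated as pairing in the main fit, and a replicate block was an alternative. Replicate libraries of a group all differed by more than sampling noise. The mean chi-square per gene was 118 and 73.1 for DTC replicate 1 against replicates 2 and 3, and 17.5 between those. For untreated WT replicate 1 it was 25.5 and 17.8, and 5.31 between the other untreated libraries. DTEC pairs ran from 12 to 49.1 and KO pairs from 3.74 to 6.37.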

Additional observations from a re-analysis of the deposited data

Results flagged for a closer look

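For 7 of the 8 tested members the change from untreated WT differed between 7 and 28 days of erlotinib by the direct edgeR test of DTEC against DTC. Over all tested genes 26.6% were called lower in this test and 55.4% in either direction. CXCL1, CXCL10 and CXCL11 passed the filter only through the DTC libraries, so the count cannot be read as support. The log2 difference was -1.54 for CXCL1, -3.43 for CXCL8 and -5.09 for CXCL10. It was -7.02 for CXCL11, -2.97 for CCL5, -4.98 for IL6 and -1.85 for IL1B. IL1B was the member whose change had opposite signs at the 2 times, above untreated WT at 7 days and below it at 28 days. Groups of 3 libraries were too small to call a single library outlying by a test.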

How the results depend on the processing

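The number of members called was within 1.5 times of the reported one in most alternatives. In DTEC against untreated WT it was 3 in place of 5 with the compared libraries alone, where CXCL1 and CXCL10 did not pass the filter. In KO it was 0 in place of 1 with no filter. Leaving out single libraries gave 7 to 9 members in DTC, 4 to 6 in DTEC against untreated WT, 7 to 8 in DTEC against DTC and 0 to 1 in KO. With the replicate block the numbers were 8, 5, 7 and 1, so it changed no call count, and it turned 1 sign, that of CXCL11 in KO (-0.00343). Signs also turned in KO among uncalled members when single libraries were left out: the log2 difference ran from -0.49 to 0.59 for CXCL2, from -0.10 to 0.25 for CXCL8, from -2.62 to 0.51 for CXCL11 and from -1.04 to 0.29 for IL6. Of 432 recomputed member values, 410 kept direction and call. The count of all genes called in KO, 738, was 1153 with DESeq2, 1147 with no filter, 2656 with the compared libraries alone and 321 to 426 without single libraries. Total counts alone gave 5748 genes higher and 3269 lower in DTEC against untreated WT (4449 and 4506 as reported), 3555 and 5951 in DTEC against DTC (4923 and 4557) and 676 and 182 in KO (473 and 265). Depth limited CXCL2, CXCL3 and CCL20 throughout, and every member but IL1B, CXCL8 and CCL5 in untreated WT and KO. The cause of the other differences was not tested.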
